A study of Schizosaccharomyces pombe with 4 samples.

Results

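The 7 genes described here belong to the fission yeast cytoskeleton and were examined for RNA polymerase II: act1, which encodes actin, the tubulin genes nda2, nda3 and atb2, and cdc8, cdc3 and adf1, which encode the actin-binding proteins tropomyosin, profilin and cofilin. They are 7 of 5113 protein-coding genes, chosen by name and not by a threshold on the signal. The choice was made with earlier results of these data known. The study compared Schizosaccharomyces pombe cells lacking Abp1 (ABP1d in the labels, abp1Δ below), a homolog of the centromere protein CENP-B, with wild-type cells, both growing exponentially in YES medium. Polymerase carrying phosphate on serine 5 of the repeats in its C-terminal domain (Ser5P), a mark of initiation and early elongation, was immunoprecipitated with the antibody ab5131 and the bound DNA was sequenced. Of the 4 samples, the 2 ChIP samples each have 1 list of scored genomic intervals. The 2 inputs were not analysed here. The labels name no further allele, strain background or clone for either genotype.

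Each genotype has 1 list and no replicate, so every value below describes these lists without a test. No score below 200 is listed, read depth is unknown, and whether the lists were scaled alike is not stated. A gene without an interval is therefore one that did not reach that level in these libraries, which is not the same as a gene without polymerase. The deleted gene, SPBC1105.04c, had no interval in either list, so it does not check the genotype labels. The annotation calls it cbp1 and gives the symbol abp1 to another gene, SPAPJ760.02c, described as a cofilin/tropomyosin family protein. That gene is not the one deleted here, and it also had no interval in either list.

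Actin filaments in fission yeast form the cortical patches of endocytosis, the cables along which cargo is carried, and the contractile ring that divides the cell. Profilin feeds actin monomers to filament-building formins, tropomyosin binds along the filaments of cables and ring, and cofilin severs filaments so that their subunits can be used again. Microtubules are built from dimers of alpha-tubulin, made from nda2 and atb2, and beta-tubulin, made from nda3, and they position the nucleus, mark the cell ends and form the spindle.

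Actin was the one member with Ser5P intervals, and it had them in both genotypes. Intervals lay in the body of act1, from annotated start to end, in the abp1Δ list and in the wild-type list, and nda2, nda3, atb2, cdc8, cdc3 and adf1 had none in either. Among all protein-coding genes, 7.12% had a body interval in abp1Δ and 7.18% in wild type, and 6.24% in both lists. Beside these shares 1 gene of 7 is too small a count to set the members apart from the genome. Over the 7 bodies, which span 9818 bp, 1426 bp were covered in abp1Δ and 1014 bp in wild type, all of it in act1. The map of the members shows this contrast: act1 was covered along most of its length, the other bodies were empty, and the nearest marks beside atb2 and nda3 lay in their downstream neighbours.

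The act1 gene (SPBC32H8.12c; ASM294v3, chromosome II, 1475485 to 1477333, minus strand) is 1849 bp long with no intron. Its coding sequence runs from 1476149 to 1477276, which leaves 57 bp of 5′ UTR and 664 bp of 3′ UTR. In abp1Δ 77.1% of the gene was covered, in 13 intervals, and in wild type 54.8%, in 21 intervals. The coverage was thus longer and less broken in abp1Δ. The same held for the lists as wholes, with 2851 intervals over 249934 bp in abp1Δ and 3242 over 227413 bp in wild type. The abp1Δ intervals included nearly every wild-type base: 1012 bp were shared, which is 71.0% of the abp1Δ and 99.8% of the wild-type length. In abp1Δ alone 414 bp were covered, and in wild type alone 2 bp.

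One wide interval carried the signal of act1 in each list. In abp1Δ it was 982 bp wide (1476090 to 1477071) with a score of 674, and in wild type 878 bp (1476136 to 1477013) with a score of 534. On the gene, these intervals began 262 bp past the annotated start in abp1Δ and 320 bp past it in wild type, and both ended just past the stop codon, by 59 bp in abp1Δ and by 13 bp in wild type. The highest signal of act1 thus sat over the body of its coding sequence and not at its start in both genotypes. The other 12 intervals in abp1Δ scored 200 to 285 and covered 444 bp. The other 20 intervals in wild type scored 200 to 222 and covered 136 bp. Apart from the wide interval, the intervals over act1 thus scored at most 285 in abp1Δ and at most 222 in wild type. The lowest score in each list is 200 and the median 206.

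**Figure D1:**
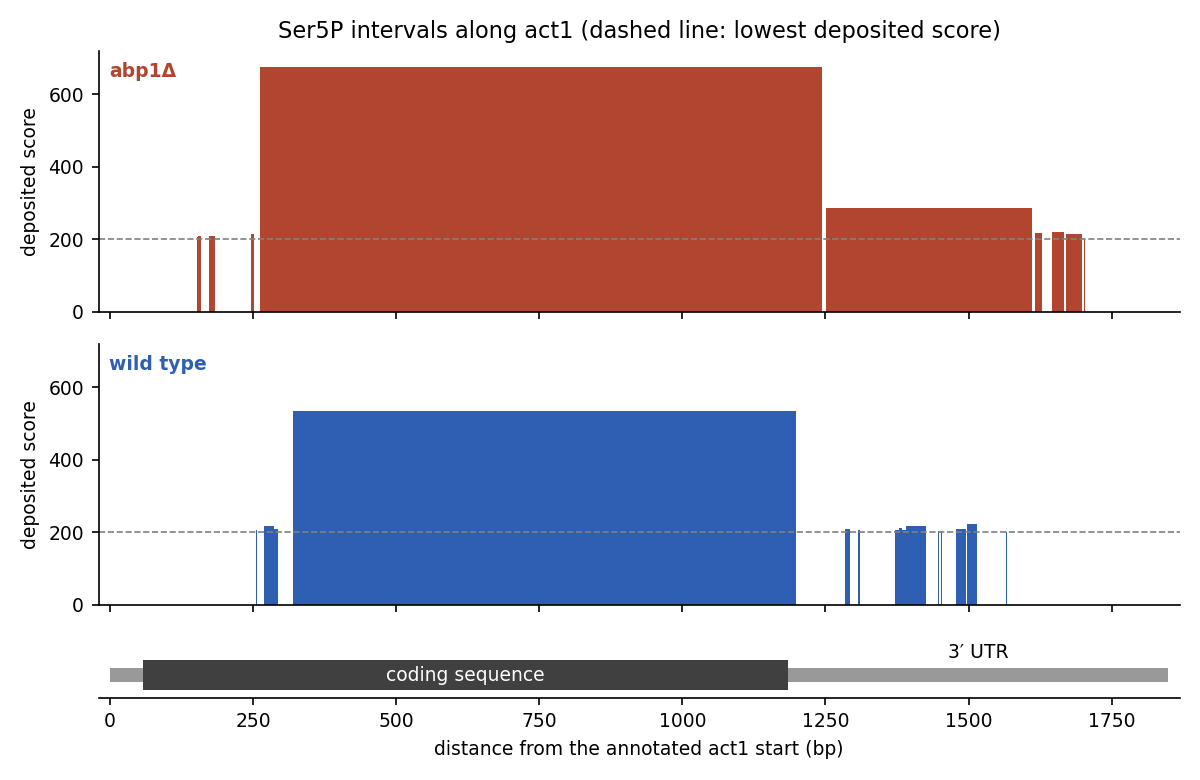
Deposited score of each Ser5P interval (bars, drawn flat at the interval's score) against distance in bp from the annotated act1 start, for abp1Δ above and wild type below; the dashed line is the lowest deposited score of 200. The wide interval reaches 674 in abp1Δ and 534 in wild type, and over the 3′ UTR a 360 bp interval at 285 in abp1Δ stands beside short pieces of at most 222 in wild type.

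The difference in covered length between the genotypes lay mostly in the annotated 3′ UTR of act1. There 483 of 664 bp were covered in abp1Δ (72.7%) and 122 bp in wild type (18.4%). In the coding sequence 943 of 1128 bp were covered in abp1Δ (83.6%) and 892 bp in wild type (79.1%). The 5′ UTR had no covered base in either list. Of the 414 bp covered in abp1Δ alone, 361 lay in the 3′ UTR and 53 in the coding sequence. The main abp1Δ piece there was a single interval of 360 bp with a score of 285 (1475723 to 1476082), over bases that in wild type held short pieces scoring 200 to 222. The convergent neighbour mei4, which encodes a meiotic transcription factor and ends 199 bp from the end of act1, had no interval in either list.

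**Figure D2:**
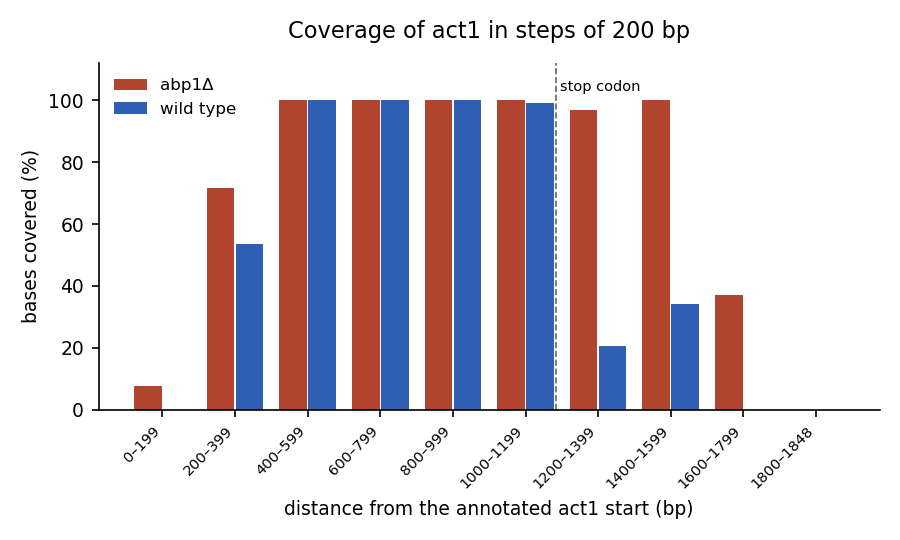
Percent of bases covered by Ser5P intervals (bars) in successive 200 bp steps from the annotated act1 start (the last step holds 49 bp), for abp1Δ and wild type. From 400 to 999 bp both genotypes are at 100%, from 1200 to 1399 bp abp1Δ is at 97.0% and wild type at 20.5%, and from 1600 to 1799 bp abp1Δ is at 37.0% and wild type has none.

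The size of this difference depends on the score at which bases are counted. With a minimum of 250, 1342 bp of act1 were covered in abp1Δ, against 878 bp in wild type. With a minimum of 300 it had 982 and 878 bp in abp1Δ and wild type, since the 3′ UTR interval of abp1Δ, at 285, was then left out. The coverage of the 3′ UTR in abp1Δ was therefore mostly an extension past the wide interval that scored below 300. A score belongs to a whole interval, so each minimum keeps or drops intervals entire. A minimum of 550 lies between the highest scores of 534 in wild type and 674 in abp1Δ. That the 982 bp of the abp1Δ interval remained there and wild type had none followed from these scores alone. At minima of 250 and 300 abp1Δ had the longer coverage.

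At the 5′ end of act1 the first covered base lay 95 bp past the first base of the start codon in abp1Δ and 198 bp past it in wild type. The coding sequence is printed from the start codon (chrII:1476977-1477276, minus strand, RefSeq ASM294v3) to show where coverage sets in, with capitals for covered bases, 115 of 300 in abp1Δ and 64 of 300 in wild type:
act1 in abp1Δ: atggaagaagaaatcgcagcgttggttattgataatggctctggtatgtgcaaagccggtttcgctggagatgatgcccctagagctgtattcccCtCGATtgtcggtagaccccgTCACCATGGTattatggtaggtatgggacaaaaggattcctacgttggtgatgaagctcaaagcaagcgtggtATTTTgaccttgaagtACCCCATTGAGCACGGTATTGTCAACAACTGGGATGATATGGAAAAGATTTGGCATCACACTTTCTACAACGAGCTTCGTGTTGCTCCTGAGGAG
act1 in wild type: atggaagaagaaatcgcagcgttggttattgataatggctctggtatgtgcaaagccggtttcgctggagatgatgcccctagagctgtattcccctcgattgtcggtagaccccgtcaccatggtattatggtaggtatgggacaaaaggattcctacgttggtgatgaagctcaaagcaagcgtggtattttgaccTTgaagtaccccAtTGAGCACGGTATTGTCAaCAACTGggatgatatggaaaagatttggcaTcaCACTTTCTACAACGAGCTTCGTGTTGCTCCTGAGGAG
In both genotypes the first stretch of the coding sequence held no covered base, short islands followed, and continuous coverage began before base 300. A window of 250 bp each side of the annotated start held 20 covered bp in abp1Δ and none in wild type. Start windows were occupied in 2.76% of protein-coding genes in abp1Δ and 2.82% in wild type. This difference at act1 turned on a few bases, since a window of 500 bp held 259 and 208 bp in abp1Δ and wild type, and a window of 250 bp around the start codon 66 and 26 bp.

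Among genes with an interval, act1 stood well above the middle in both lists. Its highest score of 674 in abp1Δ was number 69 of 364 genes, whose median was 384. Its 534 in wild type was number 88 of 367 genes, whose median was 353. By covered length act1 was number 56 in abp1Δ, where the median gene had 420 bp, and number 69 in wild type, where it had 363 bp. By percent of the body it was number 77 in abp1Δ and number 131 in wild type, beside medians of 38.6% and 37.1%. On all these measures act1 was placed higher in abp1Δ than in wild type.

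How far this differs from other genes was read from the genes themselves. The highest score of act1 in abp1Δ was 1.26 times that in wild type, while the median ratio over 319 genes with intervals in both lists was 1.02 (quartiles 0.90 and 1.25), and 78 of them had a higher ratio than act1. Of these 319 genes 53% had a higher score in abp1Δ. The covered length of act1 was 412 bp longer in abp1Δ than in wild type. Coverage was longer in abp1Δ in 54.4% of the 412 genes that had an interval in at least 1 list and shorter in 43.4%, with a median difference of 10 bp, and 42 of these genes had a larger gain than act1. As a ratio, the covered length of act1 in abp1Δ was 1.41 times that in wild type. Over the 319 genes the median was 1.03 and the upper quartile 1.36, and 76 genes had a higher ratio than act1. The gain at act1 thus went the way of the larger group of genes. It exceeded that of most, more clearly in bp than as a ratio, with no replicate to set its error.

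The 3′ UTR of act1 was farther from the other genes than its coding sequence was. Among 259 genes with intervals in both lists and a 3′ UTR of at least 100 bp, the median change in 3′ UTR coverage was 0 percentage points (quartiles -1.03 and 7.90), with 91 genes higher in abp1Δ, 75 lower and 93 equal. For act1 the change was 54.4 points, and 10 genes had a larger one. In the coding sequence act1 changed by 4.52 points, and 67 of the 259 genes by more. This comparison was chosen after the values of act1 had been seen. At 664 bp the 3′ UTR of act1 is long: the median over 4728 genes was 262 bp, and 714 of them had a longer one.

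**Figure D3:**
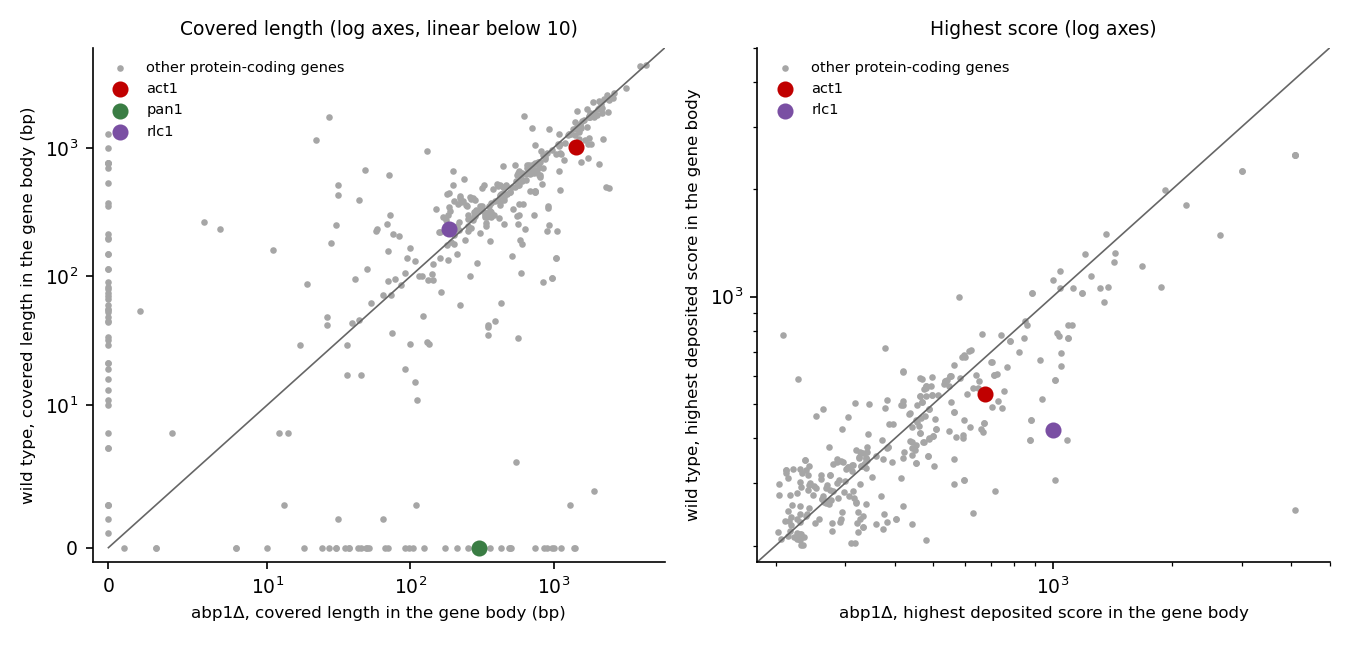
Covered length in the gene body (left, bp, log axes that are linear below 10) and highest deposited score in the body (right, log axes) for protein-coding genes, with abp1Δ on the horizontal and wild type on the vertical axis; each point is 1 gene and the line marks equal values. The act1 point lies on the abp1Δ side of the line in both plots, pan1 has no wild-type coverage and is drawn in the left plot only, and the rlc1 score of 1003 in abp1Δ is that of an interval that runs on into hsp90.

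Neither of the alpha-tubulin genes had an interval, and no exact stretch of 36 bases is shared between them. The genes nda2 (SPBC16A3.15c; chromosome II, 4268912 to 4270761, plus strand, 1 intron) and atb2 (SPBC800.05c; chromosome II, 260309 to 262116, minus strand, no intron) are both close to act1 in length, with 1850 and 1808 bp. Their coding sequences were identical at 1030 of 1350 aligned bases (76.3%). The longest identical stretch in that alignment was 29 bp and is printed in capitals, with 20 bases on each side, to show how alike the genes are at this place (chrII:4270270-4270338, plus strand, and chrII:260829-260897, minus strand):
nda2: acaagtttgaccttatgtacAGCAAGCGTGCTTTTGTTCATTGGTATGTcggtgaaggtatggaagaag
atb2: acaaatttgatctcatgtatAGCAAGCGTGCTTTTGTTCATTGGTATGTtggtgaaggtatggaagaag
Every 36-mer in nda2, atb2 and the 5 other members occurred once in the genome on both strands, and so did every 50-mer. These counts hold for exact matches. Of 1226 aligned windows of 36 bases in the alpha-tubulin coding sequences, 15 differed between nda2 and atb2 at 1 base and 12 at 2 bases, so a short read from those windows could match both genes where mismatches are allowed. Read length and the mismatches allowed are not stated.

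The intervals nearest to the alpha-tubulin genes lay in other genes. The nearest to atb2 lay 353 bp past its end in abp1Δ and 406 bp past it in wild type, in rpl4301, which encodes a ribosomal protein of the large subunit. That gene had 216 covered bp and a highest score of 250 in abp1Δ, and 363 bp and 295 in wild type. The difference in rpl4301 thus ran opposite to that in act1. From nda2 the nearest interval was 13.6 kb away in abp1Δ and 13.9 kb away in wild type, both in oga1. Long non-coding RNAs are annotated on the opposite strand of both, SPNCRNA.6519 over 1828 bp of nda2 and SPNCRNA.4630 over 379 bp of atb2. ChIP does not tell strands apart, and neither strand carried an interval.

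The beta-tubulin gene nda3 (SPBC26H8.07c; chromosome II, 3964092 to 3965973, minus strand) has 5 introns, the most of the 7 members. The gene past its end, sdh8, which encodes an assembly factor of succinate dehydrogenase, had 173 covered bp with a highest score of 237 in abp1Δ and no interval in wild type. The long non-coding RNA SPNCRNA.1651 overlaps sdh8 on the opposite strand and held 170 covered bp in abp1Δ, with the same highest score. ChIP does not tell which of them the signal comes from. These pieces came no closer to nda3 than 901 bp, and the nearest wild-type interval was 4.9 kb away. The beta-tubulin body was thus empty beside a neighbour that barely passed the lowest score in abp1Δ.

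The genes for actin-binding proteins are shorter and all lie on chromosome I, on the minus strand. The tropomyosin gene cdc8 (SPAC27F1.02c; 4319247 to 4320235) is 989 bp long, the profilin gene cdc3 (SPAC4A8.15c; 2578956 to 2579525) 570 bp and the cofilin gene adf1 (SPAC20G4.06c; 4825257 to 4826126) 870 bp. No interval lay within 2 kb of any of them in either list. The nearest to cdc8 was 2.3 kb away in abp1Δ, in pan1, and 12.8 kb away in wild type. From cdc3 the distances were 32.5 kb in abp1Δ and 70.0 kb in wild type, and from adf1 34.5 kb and 34.4 kb in abp1Δ and wild type. Of the 14 protein-coding genes within 1000 bp of a member, 3 had an interval in either list, rpl4301, sdh8 and pan1, and the other 11 had none.

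The members share a codon use that leans toward that of ribosomal protein genes, a property computed without the intervals. A codon adaptation index was computed against 131 ribosomal protein genes, on a scale where 1 means that each amino acid is always written with the codon those genes use most. Among 5105 genes the median was 0.392, and the members ranked between 55 and 480, with 0.779 for act1, 0.704 for adf1, 0.609 for cdc3, 0.607 for nda3, 0.604 for cdc8, 0.548 for atb2 and 0.546 for nda2. All 7 thus lay above the upper quartile of all genes, 0.437, and act1 was the highest of them. Leaving out the ribosomal protein genes, 213 genes with intervals in both lists had a median of 0.601. The 4693 genes with none in either list, from which ribosomal protein genes were not left out, had 0.389.

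Genes of like codon use differed in how often they had an interval, here in either list and with ribosomal protein genes left out. In the bin from 0.70 to 0.72, which holds adf1, 13 of 22 genes had one (59.1%), so adf1 was among the 9 without. In the bin from 0.60 to 0.62, which holds cdc3, nda3 and cdc8, 9 of 32 genes had one (28.1%), and in the bin from 0.54 to 0.56, which holds nda2 and atb2, 12 of 76 (15.8%). These 5 genes thus lay among genes that mostly had no interval. In the bin from 0.76 to 0.78, which holds act1, 12 of 14 genes had one (85.7%). The codon index was chosen after the intervals had been seen and describes coding sequence, not transcription.

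**Figure D4:**
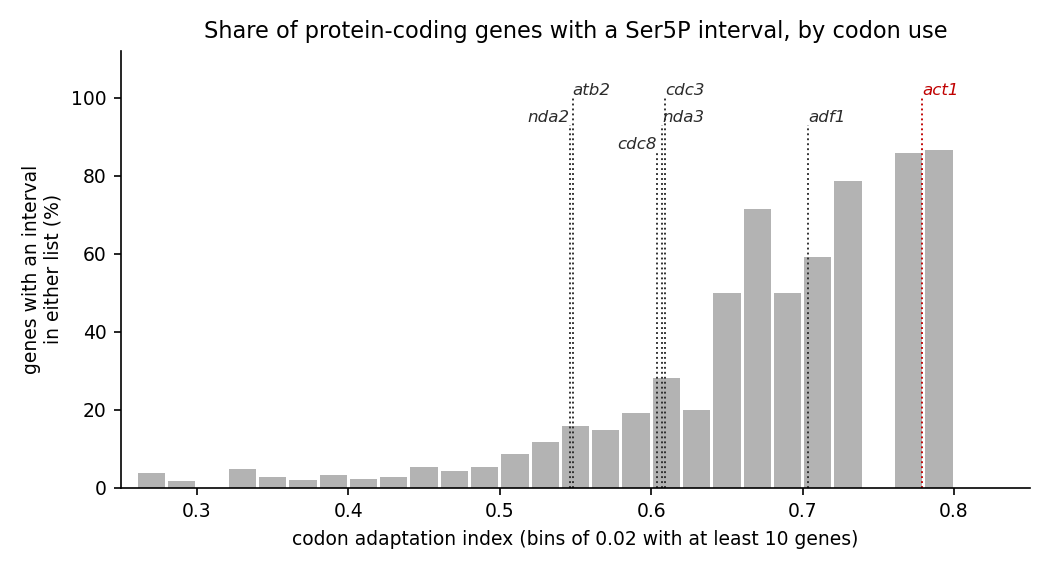
Percent of protein-coding genes with a Ser5P interval in either list (grey bars) in bins of the codon adaptation index that hold at least 10 genes, ribosomal protein genes left out; dotted lines mark the 7 members. The share of occupied genes is higher toward the right, where act1 lies at 0.779 and adf1, which has no interval, at 0.704.

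Other genes of the actin and microtubule cytoskeleton were mostly empty as well. Of 67 genes in 4 lists, 2 had a body interval in abp1Δ (2.99%) and 1 in wild type (1.49%), below the 7.12% and 7.18% of all protein-coding genes in abp1Δ and wild type. Counts of 2 and 1 are too small to set these genes apart from the genome. The median covered length was 0 bp in every list, as it was over all genes. No interval lay in any of 24 microtubule genes, which include the gamma-tubulin gene gtb1, the plus-end protein gene mal3 and the tubulin folding cofactors alp1, alp11, alp21 and alp31. None lay in the 8 genes of the CCT chaperonin, which folds newly made actin and tubulin. The formin genes cdc12, for3 and fus1 and the Arp2/3 complex genes, whose products nucleate filaments, had none either.

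Among 15 ring and cable genes rlc1 had intervals in both lists, and they lay past its coding sequence, next to a strongly covered neighbour. The gene rlc1 (SPAC926.03; chromosome I, 3887262 to 3888497, plus strand) encodes a light chain of myosin II in the contractile ring. In abp1Δ 187 bp of it were covered and in wild type 234 bp, none of it in coding sequence in either list. It converges with the chaperone gene hsp90, whose annotated end lies 60 bp from its own. The interval scoring 1003 in abp1Δ ran 2411 bp past rlc1 and lay mostly in hsp90, where 2352 bp were covered in abp1Δ, against 2558 bp in wild type. The wild-type interval, with 423, lay mostly within rlc1 and ended 64 bp past it. The gap of 60 bp between the genes makes up most of that length, so the interval barely entered hsp90.

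Among 20 actin patch genes pan1 had intervals in abp1Δ and none in wild type. The gene pan1 (SPAC25G10.09c; chromosome I, 4313118 to 4318707, minus strand) encodes a component of endocytic actin patches and lies next to cdc8. In abp1Δ 302 of its 5590 bp were covered, within a stretch of 510 bp in its coding sequence, with a highest score of 361. This stretch is made of repeats: 271 of the 302 covered bp (89.7%) lay in 36-mers that occur more than once, while 12.6% of the whole gene does, and none of these 36-mers occurs outside pan1. The 3 intervals with the highest scores are printed 5′ to 3′ on the strand of pan1 to show the shared sequence, with capitals for bases in such 36-mers:
pan1 interval, score 361 (chrI:4316610-4316686): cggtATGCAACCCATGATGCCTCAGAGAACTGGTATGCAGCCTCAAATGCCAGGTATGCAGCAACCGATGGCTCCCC
pan1 interval, score 349 (chrI:4316840-4316920): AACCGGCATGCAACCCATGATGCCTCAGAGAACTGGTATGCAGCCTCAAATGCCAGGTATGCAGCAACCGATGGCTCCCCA
pan1 interval, score 326 (chrI:4316693-4316776): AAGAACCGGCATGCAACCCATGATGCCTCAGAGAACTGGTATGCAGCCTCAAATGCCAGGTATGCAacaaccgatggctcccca
The intervals thus share much of their sequence, with up to 3 copies of a 36-mer, and a read within such a 36-mer cannot be assigned to 1 copy. Outside repeated 36-mers 31 covered bp remained. The part of the repeats in the difference between the genotypes was not tested.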

How the data were processed

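Per the labels' protocols, cells were fixed with 1% formaldehyde for 15 min, chromatin was sheared to 250 to 400 bp, and a kit marketed for RNA served for library preparation. Per the submitters' processing notes, Bowtie 0.12.5 was used. How peaks were called, on which build, with what scaling and with or without the inputs is not stated. The deposited lists, 1 for each of the 2 ChIP samples, give chromosome, start, end and a score per interval, with no header. The score is the authors' own, its unit is not stated, and it was compared between lists only as a description. The lists hold 2851 intervals over 249934 bp in abp1Δ and 3242 over 227413 bp in wild type, and none runs past a chromosome end of ASM294v3.

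Starts were read as 0-based, and covered bases were counted per gene from annotated start to end. Neighbours were genes within 1000 bp. Coding sequences were aligned with Biopython 1.88 (match 2, mismatch -1, gap opening -6, gap extension -1). The codon index is the geometric mean of codon frequencies relative to the most used synonym. Coverage counting was checked on simulated intervals. The members and lists were chosen with earlier results of these data known. Named genes were the members, listed genes with an interval, genes near a member and the deleted gene, and formin, Arp2/3, chaperonin and microtubule genes without an interval are named as list members. Others were chosen after their values were seen. No p-value was computed.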

Additional observations from a re-analysis of the deposited data

How the results depend on the processing

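The count of members with a body interval stayed at 1 in both genotypes with the upper 50% of each list by score, with a score of at least 300, with the abp1Δ list cut to the covered length of the wild-type list, over the coding span, and with at least 50 bp covered. This count could not have changed. None of these alternatives adds an interval to the 6 other genes, and the wide act1 intervals, at 674 in abp1Δ and 534 in wild type, pass every cut. The excess of 412 bp in abp1Δ over act1 kept its direction under every alternative run, with 422 bp for the upper 50% of each list, 328 bp with the abp1Δ list cut, 242 bp with intervals up to 100 bp apart merged, 104 bp with a score of at least 300 and 51 bp over the coding span. Over the 7 bodies together 14.5% was covered in abp1Δ and 10.3% in wild type. These shares became 13.7% and 10.3% with the abp1Δ list cut, 15.8% and 13.4% with merging, 10.002% and 8.94% with a score of at least 300, and 13.0% and 12.3% over the coding span, in each case abp1Δ before wild type. The count of members with a start-window interval, 1 in abp1Δ and 0 in wild type, was 1 in both with a window of 500 bp or with 250 bp around the first coding base. Of the related genes 2 in abp1Δ and 1 in wild type had an interval, and over the coding span, an alternative chosen after seeing the data, 1 and 0. Leaving out bases in repeated 36-mers, also chosen afterwards, gave 2 and 1. No paired analysis was possible because each genotype has 1 list. Depth is unknown, so no limit was computed for the 6 genes without an interval, and covered length depends on depth too.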

Other observations

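The genes placed next to act1 by highest score were not cytoskeletal, and they were looked up after its values were seen. In abp1Δ, act1 at 674 stood between rps802 and rps801, which encode proteins of the small ribosomal subunit, at 703 and 699, and aar2, a splicing factor gene, and its neighbour rps1401, both at 670. In wild type, act1 at 534 stood between rps901 and the copper transporter gene ctr4, at 551 and 544, and cpc2, which encodes a ribosome-bound scaffold protein, and the mitochondrial chaperonin gene mcp60, at 533 and 531. Their covered lengths ran from 280 bp in rps802 to 1426 bp in act1 in abp1Δ, and from 344 bp in rps901 to 1849 bp in mcp60 in wild type.

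Relative to its annotated length, coverage of act1 was centred nearer the start than in most genes with an interval. On this measure its coding sequence lies toward the start, with 57 bp of 5′ UTR before it and 664 bp of 3′ UTR after it. The 5′ UTR held no covered base in either list, so the values do not place coverage at the start itself. On a scale from 0 at the annotated start to 1 at the end, the mean position of its covered bases was 0.517 in abp1Δ and 0.442 in wild type. The medians over genes with an interval were 0.575 in abp1Δ and 0.578 in wild type, with lower quartiles of 0.503 and 0.493.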
